A study of Mus musculus with 13 samples.

Results

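The genes described here encode the enzymes and regulators of sterol synthesis and of fatty acid synthesis in mouse bone marrow-derived macrophages. They are 34 genes of 28307 named on the arrays, 23 in the sterol branch and 11 in the fatty acid branch, taken by symbol or older synonym from a list of the 2 pathways. RNA was measured on 13 one-colour Agilent arrays in 4 groups. Control macrophages came from mice in which exons 4-7 of HDAC3 carry loxP sites (HDAC3 floxed) and knockout (KO) macrophages from mice with the same floxed gene and a Cre recombinase driven by the lysozyme M promoter, so that the KO cells differed from controls in Cre as well as in HDAC3. All mice were 12-16 week old C57Bl/6J males. Bone marrow was grown in 30% L929 conditioned medium, and after replating the cells were kept for 24 hours with 10 ng/mL of IL-4, the cytokine of alternative macrophage activation, or with its vehicle, 0.1% bovine serum albumin. There were 4 control vehicle arrays (numbered 1 to 4), 3 KO vehicle arrays (5, 6 and 7), 3 control IL-4 arrays (9, 10 and 12) and 3 KO IL-4 arrays (13, 14 and 15).

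Cholesterol is built from acetyl-CoA through mevalonate, squalene and lanosterol, and most of the enzymes are transcribed under SREBP-2, a membrane-bound factor that SCAP escorts to the Golgi for cleavage when sterols are low and that INSIG proteins hold in the endoplasmic reticulum when sterols are high. Fatty acids are built from the same acetyl-CoA by acetyl-CoA carboxylase and fatty acid synthase, then lengthened by elongases and desaturated, largely under SREBP-1 and the liver X receptors. HDAC3 is the histone deacetylase of the NCoR and SMRT corepressor complexes, which nuclear receptors recruit. Macrophages use both pathways to balance the cholesterol and membrane lipid they take up from engulfed cells and lipoproteins.

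The 200 bases before the RefSeq transcription start (build GRCm38.p6) are shown for 5 members. These passed the test in at least 1 comparison of KO with control cells, and their windows hold one of the motifs below. Hsd17b7, Sc5d, Dhcr7, Elovl5 and Me1 met the same condition and are not shown. Elovl6 also passed the test, and its window held none of the motifs. Capitals mark a sterol regulatory element core (TCACNCCAC), a CCAAT box (bound by NF-Y, read as ATTGG on the other strand) or the E-box CACGTG, and each sequence runs 5′ to 3′ on the strand of its gene.
Hmgcs1 (chr13:119690151-119690350, strand +): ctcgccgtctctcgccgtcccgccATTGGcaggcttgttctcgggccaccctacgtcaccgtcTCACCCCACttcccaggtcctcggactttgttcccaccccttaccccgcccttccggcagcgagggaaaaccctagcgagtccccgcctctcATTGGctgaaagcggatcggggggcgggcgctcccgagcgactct
Idi1 (chr13:8885406-8885605, strand +): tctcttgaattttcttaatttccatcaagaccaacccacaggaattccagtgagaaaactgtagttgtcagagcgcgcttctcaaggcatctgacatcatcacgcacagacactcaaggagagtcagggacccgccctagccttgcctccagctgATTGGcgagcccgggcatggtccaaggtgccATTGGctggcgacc
Mvd (chr8:122443423-122443622, strand -): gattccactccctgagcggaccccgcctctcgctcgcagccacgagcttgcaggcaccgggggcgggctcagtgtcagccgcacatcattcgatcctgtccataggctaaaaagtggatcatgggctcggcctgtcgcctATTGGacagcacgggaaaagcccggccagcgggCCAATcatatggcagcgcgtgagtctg
Cyp51 (chr5:4104698-4104897, strand -): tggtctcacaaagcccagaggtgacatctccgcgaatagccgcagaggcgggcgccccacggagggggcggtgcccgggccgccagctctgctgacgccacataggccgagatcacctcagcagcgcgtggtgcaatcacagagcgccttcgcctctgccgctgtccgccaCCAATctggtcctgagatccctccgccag
Insig1 (chr5:28071212-28071411, strand +): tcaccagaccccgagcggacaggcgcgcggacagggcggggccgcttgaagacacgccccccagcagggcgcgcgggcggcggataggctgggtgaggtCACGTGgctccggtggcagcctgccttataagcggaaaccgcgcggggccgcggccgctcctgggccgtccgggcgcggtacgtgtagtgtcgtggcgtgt
The Hmgcs1 stretch held the sterol element core starting at position -137 relative to the start, between 2 CCAAT boxes, and no other member's window held that core. The Idi1 and Mvd stretches each held 2 CCAAT boxes within 60 bases of the start, Cyp51 held 1, and the Insig1 stretch held an E-box.

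Promoter windows of 250 bases before to 50 after the start were matched by symbol for 28 of the 34 members in the RefSeq table; those of Fdft1, Fdps, Sqle, Stard4, Scd1 and Fads1 were not analysed here. Both strands were searched. CCAAT occurred in 17 of 19 sterol members with a window (89.5%) and 6 of 9 fatty acid members (66.7%), against 42.4% of the 12171 genes that were tested on the arrays and had a window. The GC box GGGCGG, bound by Sp1, was in 18 of 19 sterol members (94.7%) and 5 of 9 fatty acid members (55.6%), against 58.5% of tested genes. The E-box was in 5 of 19 sterol members (Dhcr7, Hsd17b7, Insig1, Sc5d and Scap) and in Elovl5 of the fatty acid members, against 10.5% of tested genes. TCACNCCAC was in 1.45% of tested genes. A match is a match of letters only, and none of the motif shares was tested.

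Across the series, Hdac3 was lower in KO than in control arrays by 1.41 on the log2 scale in vehicle (adjusted p = 0.00295) and by 1.52 under IL-4 (adjusted p = 0.00397; limma). Whether its probe lies in the floxed exons was not analysed here. The Hdac3 probe was dim. Its log2 signal relative to each array's 75th percentile averaged -2.01 in control and -3.41 in KO vehicle arrays. Under IL-4 the means were -1.99 and -3.51, and 2 of the 3 KO IL-4 arrays were well above background. The size of the fall is therefore uncertain. The summed linear signal of 8 macrophage markers, relative to each array's 75th percentile, ran from 499 to 556 on control vehicle, 475 to 508 on KO vehicle, 399 to 424 on control IL-4 and 438 to 477 on KO IL-4 arrays, while no list of neutrophil, lymphocyte, mast cell, dendritic cell, fibroblast or erythroid markers exceeded 5.63 on any array. Of the 8 macrophage markers, 2 were higher (Itgam by 1.44 and Csf1r by 0.42) and 1 was lower (Fcgr1, -0.68) in KO than in control vehicle arrays, with a median of 0.03. Under IL-4, 3 rose (Itgam by 1.85, Cd14 by 0.89 and Mertk by 0.74) and 1 fell (Fcgr1, -0.67), with a median of 0.34. The part of these marker differences in the member results was not tested. Lyz2, whose promoter drives Cre, did not differ between genotypes past the threshold in vehicle (-0.02, adjusted p = 0.996) or under IL-4 (0.30, adjusted p = 0.110). The share of spots well above background ran from 56.2% (control vehicle 4) to 83.2%, with KO IL-4 15 next lowest at 61.1%. Each of the slides held at most 1 array of a group, but each group sat at 1 position on its slides, so group and position on the slide cannot be told apart. In bulk RNA, fewer cells of a kind and less RNA per cell cannot be told apart. Nothing in the labels gives the number of mice or cultures behind a group. The p-values therefore measure only how far these 13 samples spread, which may be technical spread.

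All 34 members passed the filter on dim probes, which asks that all arrays of some group lie well above background, and 32 of them did so on all 13 arrays. Insig1 was well above background on 12 arrays, the exception being control IL-4 9. Mvk was well above background on 9 and passed only through the control IL-4 group. Values are the log2 signal minus the array's 75th percentile, for the brightest probe of a gene. These levels are set beside each other only for the same probe.

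In vehicle, 8 of the 23 sterol members were higher in KO than in control cells and none was lower, where 2.42% of all genes rose and 2.25% fell (limma, adjusted p under 0.05 over 20891 genes). The 8 were Hmgcs1, Mvd, Idi1, Fdft1, Sqle, Cyp51, Hsd17b7 and Stard4, by 1.30-fold to 1.65-fold. Under IL-4, 9 sterol members rose and none fell, against 2.03% and 1.60% of all genes. Those 9 were Mvd, Idi1, Fdft1, Sqle, Cyp51, Sc5d, Dhcr7, Insig1 and Stard4, by 1.49-fold to 2.35-fold. The median sterol log2 fold change was 0.38 in vehicle and 0.35 under IL-4, beside 0.02 and -0.02 over all genes. Of the 23 estimates, 21 were above 0 in vehicle and 20 under IL-4. KO arrays lay wholly above control arrays for 13 sterol members in vehicle, where this held for 8.98% of all genes, and for 14 under IL-4, where it held for 9.09%. The members were chosen with earlier results of these data known, so setting them beside all genes is a description.

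The fatty acid branch was mixed. Of its 11 members, 2 rose (Elovl5 and Elovl6) and 1 fell (Me1) in vehicle, where 2.42% of all genes rose and 2.25% fell. Under IL-4, 1 rose (Elovl6) and 1 fell (Me1), against 2.03% and 1.6% of all genes. The median log2 fold change was 0.27 in vehicle and 0.19 under IL-4. KO arrays lay wholly above controls for 5 members in each condition, against 8.98% of all genes in vehicle and 9.09% under IL-4. They lay wholly below for Me1, a pattern held in the lower direction by 7.9% of all genes in vehicle and 8.75% under IL-4. The 2 HDAC3 comparisons use different arrays but 1 shared estimate of the spread.

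**Figure D1:**
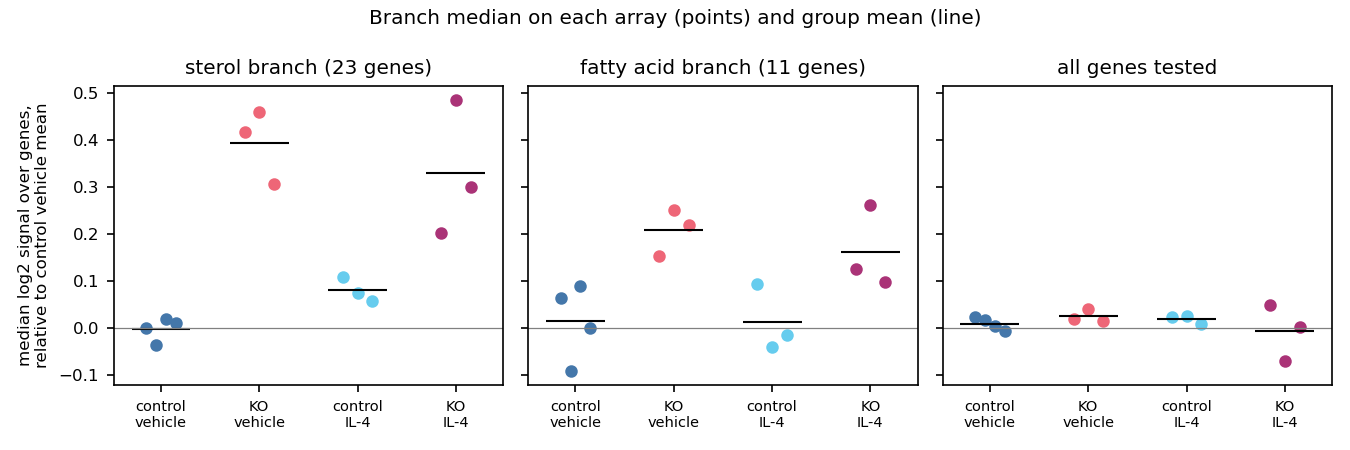
Median log2 signal over the 23 sterol genes, the 11 fatty acid genes and all 20891 genes tested, each gene set to its control vehicle mean, on each of 13 arrays (points) with the group mean (line). All 6 KO arrays sit between 0.20 and 0.49 in the sterol panel, above the 7 control arrays (-0.04 to 0.11), and the all-gene medians stay between -0.07 and 0.05.

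The sterol members differed among themselves, from -0.19 (Pmvk) to 0.72 (Stard4) in vehicle, and the branch median differed between arrays. On KO vehicle arrays 5, 6 and 7 the sterol median lay 0.42, 0.46 and 0.31 above the control vehicle mean, and on KO IL-4 arrays 13, 14 and 15 it lay 0.20, 0.49 and 0.30 above it. Control IL-4 arrays read 0.11, 0.08 and 0.06. No KO array overlapped a control array of the same treatment. Within slides 1, 2 and 3, the sterol median of KO minus control was 0.38, 0.48 and 0.25 in vehicle, and within slides 1 and 2 it was 0.29 and 0.45 under IL-4. The medians over all genes were 0.01, -0.03 and 0.03 in vehicle, and 0.04 and -0.10 under IL-4. The all-gene value furthest from 0 was that of slide 2 under IL-4, which holds KO IL-4 14. In the fatty acid branch the KO vehicle arrays read 0.15, 0.25 and 0.22, and the KO IL-4 arrays 0.13, 0.26 and 0.10, close above the highest control array (0.09).

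Single arrays weighed on the counts of calls. The vehicle count of 8 sterol members became 5, 5, 4 and 4 without control vehicle 1, 2, 3 or 4, and 3 without KO vehicle 5 or without 6. The count of 9 under IL-4 became 5, 3 and 5 without control IL-4 9, 10 or 12 and 5 without KO IL-4 14 or without 15. Fitted on its 6 arrays alone, the comparison under IL-4 called 0 of 23 sterol members (limma; 11 at an unadjusted p under 0.05), as it called 0.426% of all genes. With the slide as a block, 4 sterol members were called in vehicle and 6 under IL-4, and with median scaling 1 and 5. Every sterol call in these settings was a higher level in KO cells. A count of calls also depends on how many genes pass in a setting, and that share is not given here for the other settings. With median scaling the bright Hmgcs1 probe kept a vehicle change of 0.57, against 0.59 in the main fit. Its adjusted p over probes went from 0.00668 to 0.101 (limma).

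**Figure D2:**
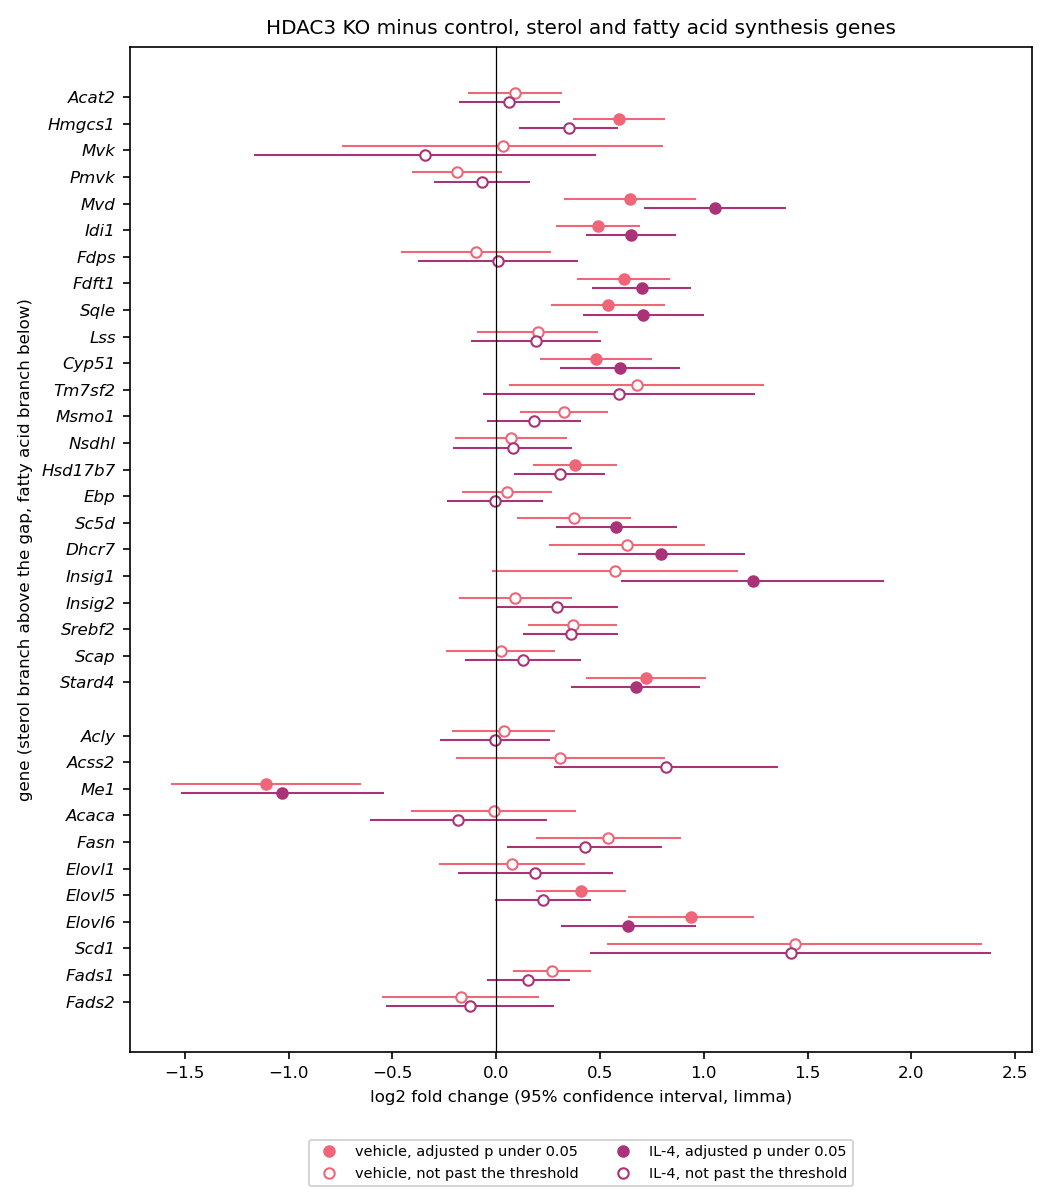
Log2 fold change of KO over control (points) with 95% confidence intervals from limma for each of the 34 genes, in vehicle and under IL-4; filled points passed an adjusted p of 0.05. Filled sterol points all lie above 0, Scd1 has the widest intervals of the fatty acid genes, and Me1 lies near -1 in both conditions.

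The mevalonate steps turn acetyl-CoA into isoprenoid units. Of these 7 genes, 3 rose in vehicle (Hmgcs1, Mvd and Idi1) and 2 under IL-4 (Mvd and Idi1). Over all genes, 2.42% and 2.03% rose. The median log2 fold change of the 7 genes was 0.09 in vehicle and 0.06 under IL-4. Hmgcs1 makes HMG-CoA, the substrate of the rate-limiting reductase. Its bright probe read 4.33, 4.23, 4.42 and 4.32 on control vehicle arrays and 4.95, 4.95 and 4.84 on KO vehicle arrays. Under IL-4 it read 4.82, 4.67 and 4.72 in control and 4.92, 5.29 and 5.04 in KO cells. The groups did not overlap in either condition, and the control cells' IL-4 arrays lay between the control vehicle and the KO arrays. The log2 fold change was 0.59 (SE 0.10, adjusted p = 0.00557) in vehicle, 1.51-fold, and 0.35 (SE 0.11, adjusted p = 0.129) under IL-4 (limma).

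Mvd decarboxylates mevalonate diphosphate to isopentenyl diphosphate. Mvd read -1.39, -1.37, -1.22 and -1.32 on control vehicle arrays against -0.75, -0.63 and -0.68 on KO vehicle arrays. With IL-4 the readings were -1.14, -1.18 and -1.09 in control and -0.41, 0.34 and -0.18 in KO cells. The 4 groups did not overlap, and they rose in the order control vehicle, control IL-4, KO vehicle, KO IL-4, KO IL-4 14 being the highest array. The difference between genotypes was 0.64 (SE 0.15, adjusted p = 0.0271) in vehicle and 1.05 (SE 0.16, adjusted p = 0.00313) under IL-4, where it reached 2.07-fold. The difference of these differences was 0.41 (95% confidence interval -0.06 to 0.88, adjusted p = 0.999). The vehicle call was lost without control vehicle 1, 2, 3 or 4 or KO vehicle 5, 6 or 7 (adjusted p from 0.0508 to 0.126); the call under IL-4 held without any single array.

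Idi1 interconverts isopentenyl and dimethylallyl diphosphate. Idi1 read 1.30, 1.46, 1.39 and 1.42 in control vehicle and 1.81, 1.98 and 1.86 in KO vehicle arrays. Under IL-4 the values were 1.13, 1.20 and 1.24 in control and 1.67, 1.88 and 1.96 in KO cells. KO arrays of both treatments overlapped each other and lay above all control arrays. Idi1 rose by 0.49 (SE 0.09, adjusted p = 0.00986) in vehicle and by 0.65 (SE 0.10, adjusted p = 0.00385) under IL-4. The vehicle call was lost without KO vehicle 6 (adjusted p = 0.0676). A second, dimmer Idi1 probe gave -0.11 (adjusted p = 0.984 over probes) in vehicle and 0.60 (adjusted p = 0.451) under IL-4. The files place both Idi1 probes on chromosome 2 of mm9, while RefSeq places the gene on chromosome 13, so these values are those of probes annotated to Idi1.

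The other 4 mevalonate genes made no call in either HDAC3 comparison. The thiolase Acat2 gave 0.09 in vehicle (95% confidence interval -0.14 to 0.32) and 0.06 under IL-4 (-0.18 to 0.31). The kinase Pmvk gave -0.19 (-0.40 to 0.03) and -0.07 (-0.30 to 0.16). The farnesyl diphosphate synthase Fdps gave -0.10 (-0.46 to 0.26) and 0.01 (-0.38 to 0.40) by its brightest probe. The other Fdps probe gave 0.31 (0.06 to 0.57, adjusted p = 0.228 over probes) and 0.30 (0.02 to 0.57, adjusted p = 0.305), with KO arrays wholly above control arrays in both conditions. For the dim kinase Mvk the intervals were wide, -0.74 to 0.80 and -1.17 to 0.48. For Acat2 and Pmvk the upper bounds in vehicle lay below the estimates for Hmgcs1, Mvd and Idi1.

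The squalene steps commit farnesyl diphosphate to sterols. Fdft1, squalene synthase, and Sqle, the epoxidase that follows, rose in both conditions, and the cyclase Lss made no call. Fdft1 read 4.78, 4.64, 4.73 and 4.85 on control vehicle and 5.32, 5.38 and 5.39 on KO vehicle arrays. Its IL-4 arrays read 5.09, 4.87 and 5.05 in control and 5.51, 5.84 and 5.76 in KO cells. The 4 groups did not overlap, with control vehicle lowest and KO IL-4 highest. Fdft1 rose by 0.61 (SE 0.10, adjusted p = 0.00447) in vehicle and 0.70 (SE 0.11, adjusted p = 0.00411) under IL-4, 1.53-fold and 1.62-fold, and both calls held without any single array.

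Sqle read 0.65, 0.39, 0.61 and 0.46 in control vehicle and 1.21, 1.17 and 0.82 in KO vehicle arrays. Its readings under IL-4 were 0.42, 0.33 and 0.55 in control and 1.12, 1.32 and 0.98 in KO cells. All 6 KO arrays lay above all 7 control arrays, KO vehicle 7 being the lowest of the 6. Sqle rose by 0.54 (SE 0.13, adjusted p = 0.0307) in vehicle and by 0.71 (SE 0.13, adjusted p = 0.0124) under IL-4. The vehicle call was lost without control vehicle 2, 3 or 4 or KO vehicle 5 or 6 (adjusted p from 0.0587 to 0.167) and the IL-4 call without control IL-4 10 (adjusted p = 0.0579). Lss, which closes the sterol rings, gave 0.20 (95% confidence interval -0.09 to 0.49) in vehicle and 0.19 (-0.12 to 0.50) under IL-4.

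The 8 genes that carry lanosterol on to cholesterol gave 2 calls in vehicle (Cyp51 and Hsd17b7) and 3 under IL-4 (Cyp51, Sc5d and Dhcr7). All were higher in KO cells, as were 2.42% and 2.03% of all genes. The median log2 fold change of the 8 genes was 0.38 in vehicle and 0.44 under IL-4. Cyp51 removes a methyl group from lanosterol. Cyp51 read -0.84, -0.62, -1.07 and -0.82 on control vehicle and -0.34, -0.22 and -0.51 on KO vehicle arrays. Its values under IL-4 were -0.98, -0.75 and -0.85 in control and -0.14, -0.42 and -0.23 in KO cells. All KO arrays again lay above all control arrays. Cyp51 rose by 0.48 (SE 0.12, adjusted p = 0.0493) in vehicle and 0.60 (SE 0.13, adjusted p = 0.0279) under IL-4. The vehicle call sat at the threshold and was lost without control vehicle 1, 3 or 4 or KO vehicle 5 or 6 or control IL-4 9, 10 or 12 or KO IL-4 13 or 15 (adjusted p from 0.0516 to 0.236); the IL-4 call was lost without control IL-4 9, 10 or 12 or KO IL-4 13 or 15 (adjusted p from 0.055 to 0.0949).

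Hsd17b7 reduces a keto group in the removal of the paired methyl groups. Its mean was 2.05 ± 0.08 (SD, n = 4) on control vehicle and 2.43 ± 0.13 (n = 3) on KO vehicle arrays. The groups did not overlap, and the rise was 0.38 (SE 0.09, adjusted p = 0.0405), against 0.31 (SE 0.10, adjusted p = 0.15) under IL-4. The vehicle call was lost without control vehicle 1, 2, 3 or 4 or KO vehicle 5, 6 or 7 or control IL-4 10 or 12 or KO IL-4 13 or 15 (adjusted p from 0.0545 to 0.215).

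Sc5d desaturates the sterol ring and Dhcr7 carries out the last reduction to cholesterol. Sc5d read 0.43, 0.11, 0.40 and 0.24 in control vehicle and 0.74, 0.67 and 0.61 in KO vehicle arrays. Under IL-4, Sc5d read -0.02, -0.16 and 0.02 in control and 0.25, 0.72 and 0.60 in KO cells. The control IL-4 arrays were the lowest of all and KO arrays lay above controls of the same treatment. The differences were 0.38 (SE 0.12, adjusted p = 0.148) in vehicle and 0.58 (SE 0.13, adjusted p = 0.0354) under IL-4, the latter lost without control vehicle 3 or 4 or KO vehicle 5 or 6 or control IL-4 9, 10 or 12 or KO IL-4 14 or 15 (adjusted p from 0.0528 to 0.135). A dimmer Sc5d probe, well above background on all 13 arrays, gave larger differences, 1.02 (adjusted p = 0.0116 over probes) in vehicle and 1.30 (adjusted p = 0.00565) under IL-4.

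Dhcr7 read 2.22, 2.31, 2.18 and 2.30 on control vehicle and 2.92, 3.07 and 2.65 on KO vehicle arrays. Its IL-4 readings were 2.97, 2.55 and 2.69 in control and 3.38, 3.97 and 3.26 in KO cells. Genotypes did not overlap within a treatment, but KO vehicle and control IL-4 arrays did. The difference was 0.63 (SE 0.17, adjusted p = 0.0656) in vehicle and 0.80 (SE 0.18, adjusted p = 0.0352) under IL-4. The IL-4 call was lost without control vehicle 1, 2, 3 or 4 or KO vehicle 5 or control IL-4 10 or 12 or KO IL-4 14 (adjusted p from 0.0526 to 0.139).

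The remaining 4 of these genes made no call. Tm7sf2, a sterol reductase, gave 0.68 (SE 0.28, adjusted p = 0.293) in vehicle with non-overlapping arrays and 0.59 (SE 0.30, adjusted p = 0.401) under IL-4. The methyl oxidase Msmo1 gave 0.33 (SE 0.10, adjusted p = 0.0922) and 0.18 (SE 0.10, adjusted p = 0.468), its arrays not overlapping in either condition. Nsdhl, which decarboxylates the sterol, gave 0.07 (95% confidence interval -0.20 to 0.34) in vehicle and 0.08 (-0.21 to 0.36) under IL-4 by its brightest probe. The 2 other Nsdhl probes gave -0.35 (adjusted p = 0.229 over probes), with KO arrays wholly below control arrays, and -0.17 (adjusted p = 0.809) in vehicle, and 0.04 each under IL-4. The isomerase Ebp gave 0.05 (-0.17 to 0.27) in vehicle, and its interval under IL-4 was -0.24 to 0.23.

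Of the regulators, Stard4 rose in both conditions, Insig1 rose under IL-4, and Srebf2, Insig2 and Scap made no call. Stard4 encodes a soluble sterol transfer protein. Stard4 read -1.86, -1.73, -1.92 and -2.12 on control vehicle and -1.14, -1.25 and -1.17 on KO vehicle arrays. Under IL-4 the readings were -2.29, -2.16 and -1.99 in control and -1.75, -1.29 and -1.38 in KO cells. Genotypes did not overlap within a treatment, although KO IL-4 13 lay below control vehicle 2. Stard4 rose by 0.72 (SE 0.13, adjusted p = 0.00862) and by 0.67 (SE 0.14, adjusted p = 0.0221), the highest vehicle fold change of the sterol branch (1.65-fold). The calls were lost without KO vehicle 5 (adjusted p = 0.0517) in vehicle and without control IL-4 9 or 10 or KO IL-4 14 or 15 (adjusted p from 0.0769 to 0.0828) under IL-4.

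Insig1, the retention protein whose own gene answers to SREBP, was dim. Insig1 read -3.26, -2.69, -2.70 and -2.26 in control vehicle and -2.16, -1.97 and -2.34 in KO vehicle arrays, which overlapped. Under IL-4 it read -3.98, -3.00 and -3.02 in control and -1.84, -2.36 and -2.10 in KO cells, which did not. Control IL-4 9 was the lowest array and the only one where the probe was not well above background. The differences were 0.57 (SE 0.27, adjusted p = 0.392) and 1.24 (SE 0.29, adjusted p = 0.0379), and the IL-4 call was lost without control vehicle 2 or 3 or KO vehicle 5, 6 or 7 or control IL-4 9, 10 or 12 or KO IL-4 13, 14 or 15 (adjusted p from 0.052 to 0.104). The other Insig1 probe gave 0.54 (adjusted p = 0.17 over probes) in vehicle and 0.46 (adjusted p = 0.319) under IL-4.

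Srebf2, which encodes SREBP-2 itself, read 3.21, 3.45, 3.43 and 3.36 in control vehicle and 3.75, 3.76 and 3.68 in KO vehicle arrays. With IL-4, Srebf2 read 3.40, 3.43 and 3.34 in control and 3.56, 3.88 and 3.80 in KO cells. By this brightest probe all KO arrays lay above all control arrays, yet the fold changes of 0.37 (SE 0.10, adjusted p = 0.0573) and 0.36 (SE 0.10, adjusted p = 0.102) missed the threshold. Dimmer Srebf2 probes separated the genotypes in 1 condition each. A_52_P665742 averaged 1.91 in control and 2.03 in KO vehicle arrays, which overlapped. Its IL-4 means were 1.95 and 2.24, without overlap. A_51_P377508 averaged 1.07 and 1.36 in vehicle, without overlap, and 1.13 and 1.19 under IL-4, with overlap. Insig2 read 0.74, 0.41, 0.87 and 0.82 in control vehicle, 0.83, 0.82 and 0.75 in KO vehicle, 1.02, 0.78 and 0.87 in control IL-4 and 1.03, 1.35 and 1.17 in KO IL-4 arrays. The Insig2 genotypes overlapped in vehicle and not under IL-4, and the differences were 0.09 (SE 0.12, adjusted p = 0.927) and 0.29 (SE 0.13, adjusted p = 0.334). The dimmer Insig2 probe had the opposite sign, -0.14 (adjusted p = 0.641 over probes) in vehicle and -0.21 (adjusted p = 0.363) under IL-4, where its KO arrays lay wholly below control arrays. Scap, the escort protein, read 1.83, 1.77, 1.99 and 1.95 in control vehicle, 1.84, 1.96 and 1.92 in KO vehicle, 2.09, 2.10 and 2.16 in control IL-4 and 2.01, 2.54 and 2.18 in KO IL-4 arrays. Scap overlapped between genotypes in both conditions, with 95% confidence intervals of -0.24 to 0.28 and -0.15 to 0.41.

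**Figure D3:**
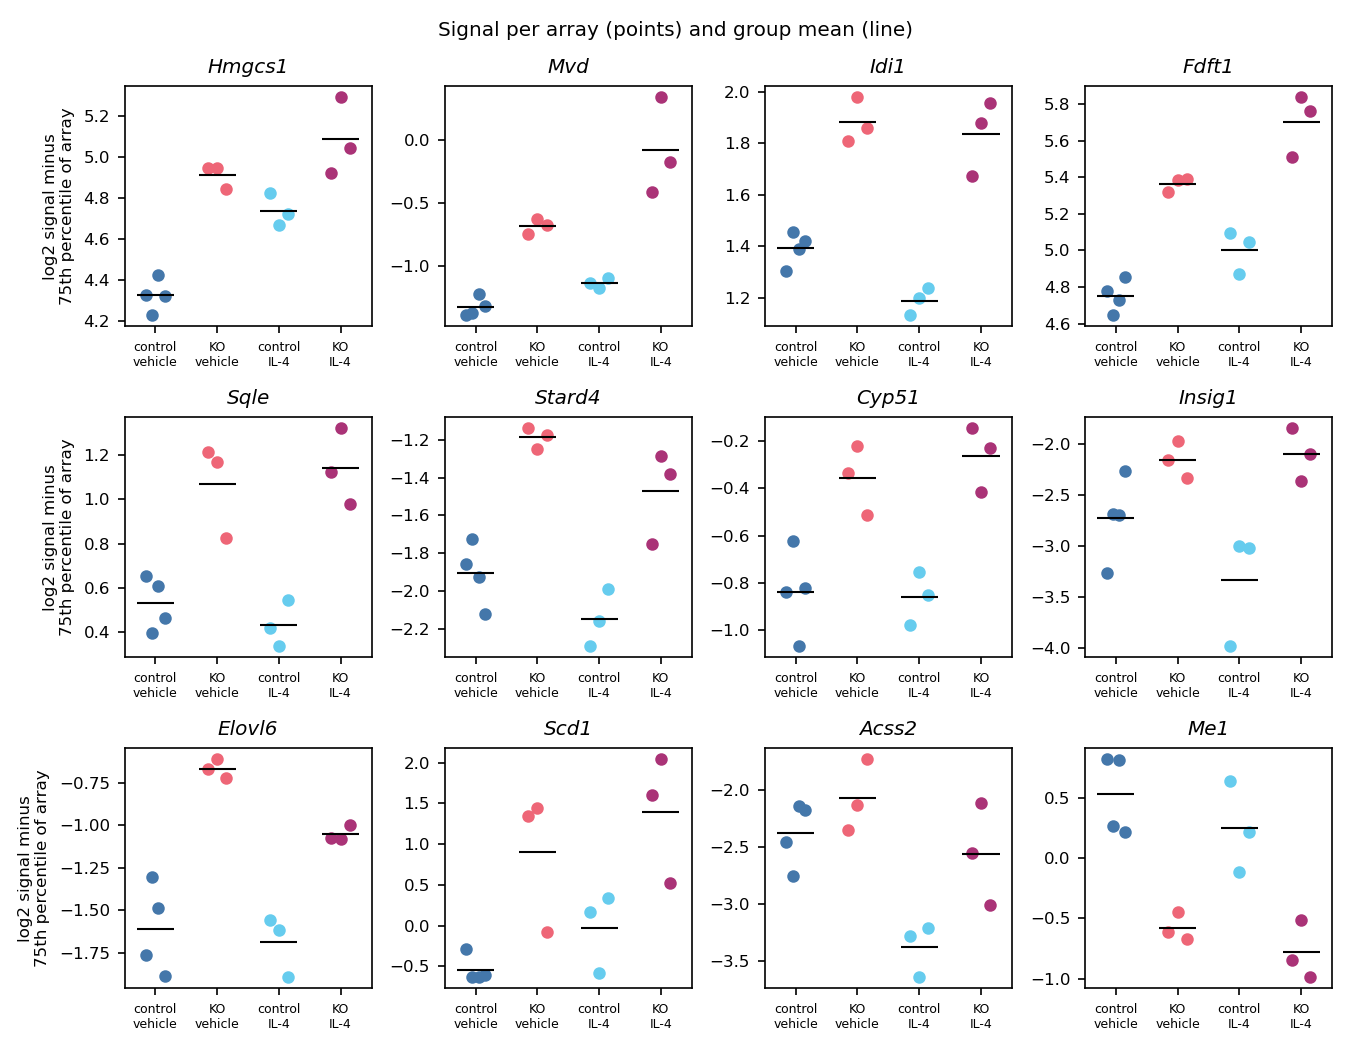
Log2 signal minus the array's 75th percentile on each of 13 arrays (points) with group means (lines) for 8 sterol and 4 fatty acid genes, each panel on its own scale. KO arrays lie above controls of the same treatment for Hmgcs1, Mvd, Idi1, Fdft1, Sqle, Stard4, Cyp51, Elovl6 and Scd1 and below them for Me1; Insig1 and Acss2 overlap in vehicle.

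In the fatty acid branch, the clearest rise was that of Elovl6, which lengthens palmitate to stearate. Elovl6 read -1.76, -1.30, -1.49 and -1.88 on control vehicle and -0.67, -0.61 and -0.72 on KO vehicle arrays. Under IL-4, Elovl6 read -1.55, -1.61 and -1.89 in control and -1.07, -1.08 and -0.998 in KO cells. KO arrays lay above every control array, and KO vehicle above KO IL-4. Elovl6 rose by 0.94 (SE 0.14, adjusted p = 0.00212) in vehicle, 1.92-fold, and by 0.64 (SE 0.15, adjusted p = 0.0366) under IL-4. The vehicle call held in every alternative setting and without each array in turn, the sole member call to do so. The IL-4 call was lost without control vehicle 3 or KO vehicle 5, 6 or 7 or control IL-4 9, 10 or 12 or KO IL-4 13, 14 or 15 (adjusted p from 0.0525 to 0.149).

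Elovl5, which lengthens polyunsaturated fatty acids, read 4.82, 4.75, 4.95 and 4.97 in control vehicle and 5.17, 5.42 and 5.25 in KO vehicle arrays. Its IL-4 values were 4.97, 5.02 and 5.21 in control and 5.32, 5.25 and 5.31 in KO cells. Genotypes did not overlap within a treatment, and the difference was 0.41 (SE 0.10, adjusted p = 0.0374) in vehicle and 0.23 (SE 0.11, adjusted p = 0.346) under IL-4. The vehicle call was lost without control vehicle 1, 2, 3 or 4 or KO vehicle 5, 6 or 7 or control IL-4 10 or KO IL-4 13 or 15 (adjusted p from 0.0539 to 0.201). A second Elovl5 probe gave 0.47 (adjusted p = 0.00864 over probes) in vehicle. Elovl1, the elongase of very long chains, gave 0.08 (95% confidence interval -0.27 to 0.43) and 0.19 (-0.19 to 0.56).

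Me1, the malic enzyme that supplies NADPH, went the other way. Me1 read 0.82, 0.27, 0.81 and 0.22 on control vehicle and -0.62, -0.45 and -0.67 on KO vehicle arrays. Its values under IL-4 were 0.64, -0.11 and 0.22 in control and -0.84, -0.51 and -0.99 in KO cells. Every KO array lay below every control array. Me1 changed by -1.11 (SE 0.21, adjusted p = 0.0099) in vehicle and by -1.03 (SE 0.22, adjusted p = 0.0257) under IL-4, to 0.464 and 0.49 of the control level. Its second probe also fell, by 0.60 (adjusted p = 0.0433 over probes) in vehicle and by 1.28 (adjusted p = 0.00115) under IL-4. The vehicle call was lost without KO vehicle 5 (adjusted p = 0.0519), which brought the fatty acid count from 3 calls to 1, and the IL-4 call was lost without control IL-4 9 or 12 or KO IL-4 13 or 15 (adjusted p from 0.0685 to 0.0948).

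Scd1, which puts the double bond into stearate, had the largest fold changes of the branch and no call. Scd1 read -0.28, -0.63, -0.63 and -0.61 on control vehicle and 1.34, 1.44 and -0.08 on KO vehicle arrays. Under IL-4, Scd1 read 0.16, -0.58 and 0.34 in control and 1.61, 2.04 and 0.53 in KO cells. Genotypes did not overlap within a treatment, but KO vehicle 7 and KO IL-4 15 lay more than 1 log2 unit below the other KO arrays of their groups. The differences were 1.44 (SE 0.41, adjusted p = 0.0831), 2.71-fold, and 1.42 (SE 0.44, adjusted p = 0.129), 2.67-fold. Those 2 arrays share slide 3, where the vehicle difference was 0.55 against 1.63 and 2.07 on slides 1 and 2; the part of the slide in the result was not tested. Fads1 and Fads2, the desaturases of polyunsaturated fatty acids, gave 0.27 (SE 0.09, adjusted p = 0.128) and -0.17 (SE 0.17, adjusted p = 0.858) in vehicle.

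Fasn, fatty acid synthase, read 0.41, 0.15, 0.18 and 0.30 in control vehicle and 0.75, 0.99 and 0.65 in KO vehicle arrays. With IL-4, Fasn read 0.40, -0.06 and 0.21 in control and 0.36, 0.96 and 0.50 in KO cells. The groups did not overlap in vehicle and did under IL-4, and the differences were 0.54 (SE 0.16, adjusted p = 0.094) and 0.43 (SE 0.17, adjusted p = 0.257). Acaca, acetyl-CoA carboxylase, gave 95% confidence intervals of -0.41 to 0.39 in vehicle and -0.61 to 0.24 under IL-4. Acly, which releases acetyl-CoA from citrate, gave -0.21 to 0.28 and -0.27 to 0.26.

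The IL-4 comparisons gave few member calls. In control cells 1 of 23 sterol members rose (Hmgcs1) and none fell, and 1 of 11 fatty acid members fell (Acss2), while 2.76% of all genes rose and 2.88% fell. These counts lie near the shares over all genes. An unadjusted limma p under 0.05 was reached in control cells by 6 sterol members and 1 fatty acid member, and by 3064 of 20891 genes. In KO cells limma called 0 of 34 members, against 1.16% of genes higher and 1.01% lower, and 6 sterol members and 1 fatty acid member had an unadjusted p under 0.05, which 12.4% of all genes had. The sterol median was 0.14 in control and 0.07 in KO cells, beside 0.01 and -0.04 over all genes. No member passed the test for a different IL-4 response between genotypes. In that comparison limma called 1 of 20891 genes (0.00479%), and none of the 34 members had an unadjusted p under 0.05, which 3.88% of all genes had. The 2 IL-4 comparisons and the 2 HDAC3 comparisons share groups with each other.

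Hmgcs1 rose with IL-4 in control cells by 0.41 (SE 0.10, adjusted p = 0.0339); in KO cells the difference was 0.17 (SE 0.11, adjusted p = 0.577), and the genotype difference of the response was -0.24 (95% confidence interval -0.57 to 0.08, adjusted p = 0.999). This call was lost without control vehicle 1, 2, 3 or 4 or KO vehicle 5 or 6 or control IL-4 9, 10 or 12 (adjusted p from 0.0516 to 0.127). Acss2, which makes acetyl-CoA from acetate, read -2.46, -2.75, -2.15 and -2.18 on control vehicle and -2.36, -2.13 and -1.73 on KO vehicle arrays. After IL-4 it read -3.28, -3.64 and -3.22 in control and -2.56, -2.12 and -3.01 in KO cells. The control IL-4 arrays were the lowest of the series, without overlap, while KO IL-4 arrays overlapped both vehicle groups. Acss2 changed by -0.997 (SE 0.23, adjusted p = 0.025) in control cells, 0.501 of the vehicle level, and -0.49 (SE 0.25, adjusted p = 0.462) in KO cells, and the genotype difference of the response was 0.51 (95% confidence interval -0.23 to 1.24, adjusted p = 0.999). The call in control cells was lost without control vehicle 1, 3 or 4 or control IL-4 9, 10 or 12 (adjusted p from 0.0522 to 0.107). The Acss2 probe was dim (mean linear signal 103), though well above background on every array. No other Acss2 probe passed the filter.

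**Figure D4:**
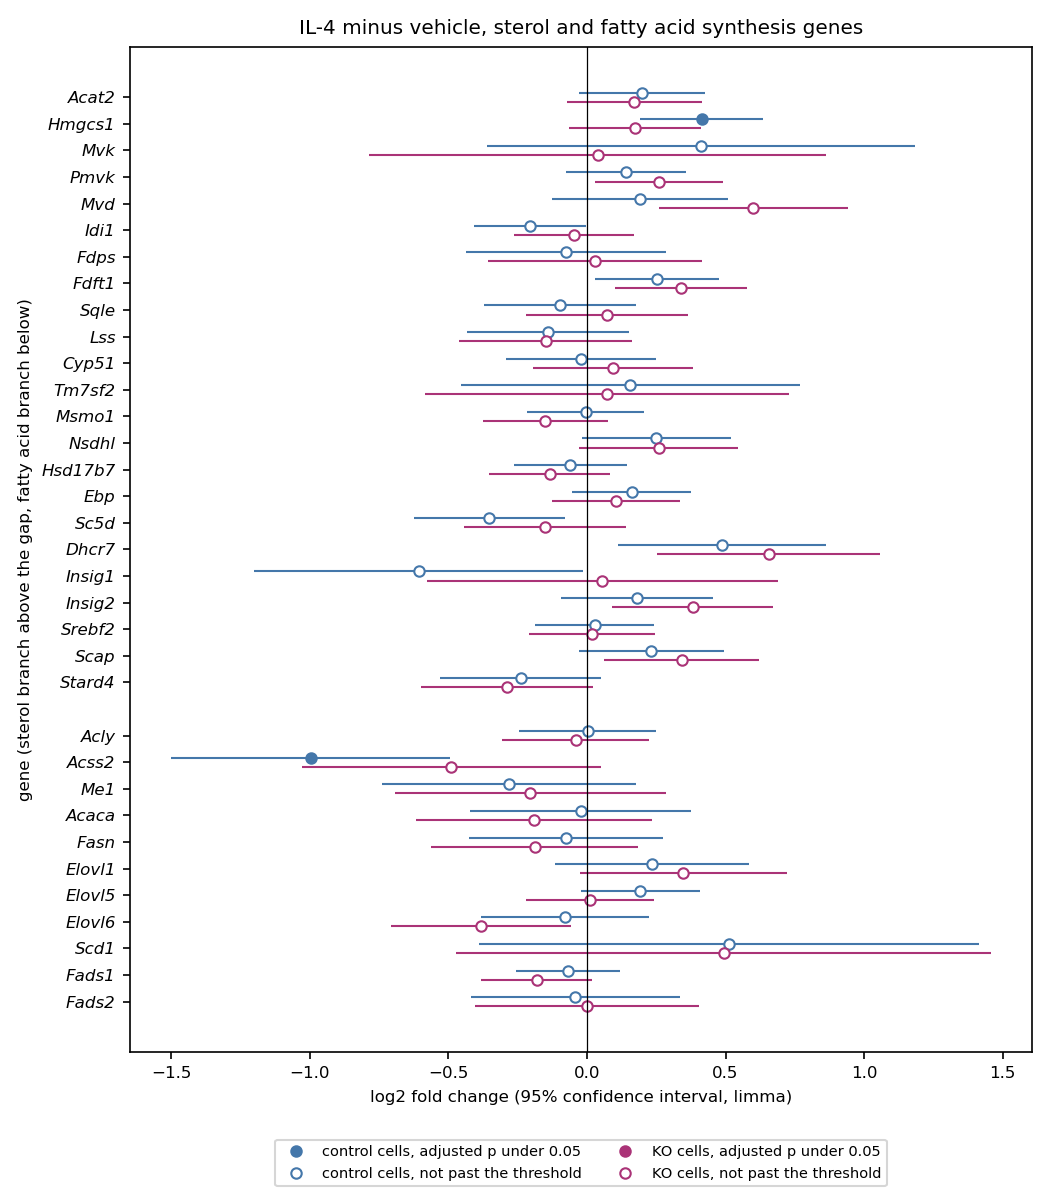
Log2 fold change of IL-4 over vehicle (points) with 95% confidence intervals from limma for each of the 34 genes, in control and in KO cells; filled points passed an adjusted p of 0.05. The filled points are Hmgcs1 above 0 and Acss2 below 0, both in control cells.

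Mvd, Fdft1, Dhcr7 and Scap had IL-4 arrays above vehicle arrays in both genotypes without passing the test. IL-4 arrays lay wholly above vehicle arrays for 6 sterol members in control and 7 in KO cells, against 1851 and 1888 of 20891 genes. They lay wholly below for 2 and 3 sterol members and for 1 and 2 fatty acid members, against 1647 and 1925 genes. Mvd gave 0.19 (SE 0.15, adjusted p = 0.663) in control and 0.60 (SE 0.16, adjusted p = 0.0846) in KO cells. Dhcr7 gave 0.49 (SE 0.17, adjusted p = 0.162) and 0.66 (SE 0.18, adjusted p = 0.111). Fdft1 gave 0.25 (SE 0.10, adjusted p = 0.251) and 0.34 (SE 0.11, adjusted p = 0.174), and Scap 0.23 (SE 0.12, adjusted p = 0.423) and 0.34 (SE 0.13, adjusted p = 0.271). Idi1 and Sc5d had control IL-4 arrays below control vehicle arrays, at -0.20 (SE 0.09, adjusted p = 0.335) and -0.35 (SE 0.12, adjusted p = 0.168). In KO cells, IL-4 arrays lay wholly below vehicle arrays for Lss (-0.15), Hsd17b7 (-0.13), Stard4 (-0.29), Elovl6 (-0.38) and Fads1 (-0.18), without passing the test.

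Hmgcs1 had 3 probes annotated to it, and its calls rest on 1 of them. A_52_P119039 was annotated through a different transcript record from that shared by A_51_P146941 and A_52_P388072. The first 30 bases of each 60-base probe are shown because the probes gave different results.
A_51_P146941: tatgttttgaaaagagtaattttaacgttt
A_52_P388072: tgcccttgataaaataacagcaagtttatg
A_52_P119039: ggcagtgtcataatgtgactggagtgagaa
The files place all 3 on the unplaced part of chromosome 13 in mm9 (chr13_random), starting at 114807, 117667 and 315347 in that order, and RefSeq places Hmgcs1 on chromosome 13. Their mean linear signals were 16448, 92.4 and 54.1, and they were well above background on 13, 12 and 10 arrays. A_52_P388072 read -1.81, -3.04, -2.76 and -2.85 in control vehicle and -3.19, -2.83 and -2.68 in KO vehicle arrays. Under IL-4 it read -2.81, -3.19 and -2.95 in control and -2.61, -2.30 and -2.64 in KO cells. Its groups overlapped in vehicle and not under IL-4, and the differences were -0.29 (adjusted p = 0.812 over probes) and 0.47 (adjusted p = 0.498). A_52_P119039 read -2.87, -2.79, -3.16 and -4.59 in control vehicle and -2.91, -3.58 and -3.50 in KO vehicle arrays. Under IL-4 that probe read -2.83, -3.44 and -4.20 in control and -4.29, -3.94 and -3.61 in KO cells. Its groups overlapped in every comparison of genotypes, with differences of 0.02 (adjusted p = 0.998) and -0.46 (adjusted p = 0.722). Averaging the 3 probes gave 0.11 in vehicle (adjusted p = 0.973) and turned the IL-4 response of control cells from 0.41 to -0.03 (adjusted p = 0.979).

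**Figure D5:**
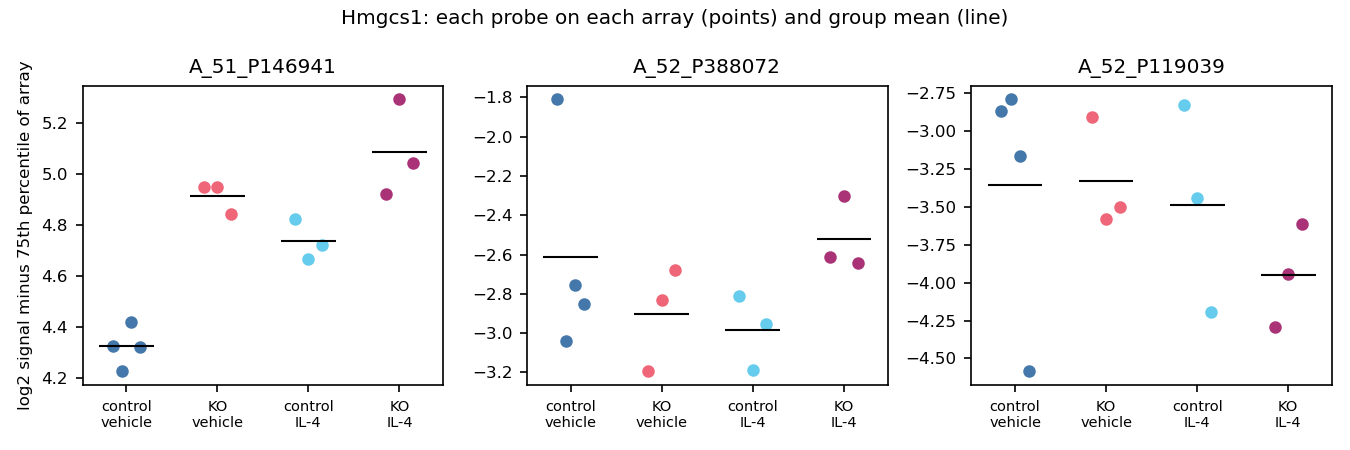
Log2 signal minus the array's 75th percentile for each of the 3 Hmgcs1 probes on each of 13 arrays (points) with group means (lines), each panel on its own scale. The bright probe A_51_P146941 separates the genotypes in both conditions, and the 2 dim probes spread over more than 1 log2 unit between arrays.

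The members had 69 probes, of which 57 passed the filter, and 17 members had more than 1 tested probe. Where a member with more than 1 tested probe was called in an HDAC3 comparison, all its tested probes had the same sign for Fdft1, Hsd17b7, Sc5d, Cyp51, Dhcr7, Insig1, Elovl5 and Me1, and signs differed for Hmgcs1 and, in vehicle, for Idi1. Among the other members, probe signs differed for Acaca and Insig2 in both conditions, for Fdps and Nsdhl in vehicle and for Pmvk under IL-4. Over all 29055 probes kept, 2.2% were called higher and 1.95% lower in vehicle, and 1.77% and 1.44% under IL-4. Both probes passed for Me1 in both conditions, for Elovl5 in vehicle and for Sc5d under IL-4. After group means were removed, the median correlation between 2 sterol members over 13 arrays was 0.22 (253 pairs), against 0.05 between fatty acid members (55 pairs) and 0.10 across branches (253 pairs); arrays share RNA, labelling and scan, so this is a description.

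Beyond the members, 20 other genes of sterol synthesis, uptake and SREBP processing were counted. In vehicle, 2 were higher and 1 was lower in KO than in control cells, against 2.42% and 2.25% of all genes. Under IL-4, 2 were higher and none lower, against 2.03% and 1.60%. The medians were 0.19 and 0.21, beside 0.02 and -0.02 over all genes. Erlin1, which takes part in the degradation of endoplasmic reticulum proteins, was the one that fell (-0.44, adjusted p = 0.0246). Cyb5r3, a reductase that feeds electrons to sterol oxidases and desaturases, gave 0.48 (adjusted p = 0.0922) in vehicle and 0.60 (adjusted p = 0.055) under IL-4.

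Of 30 other fatty acid genes, 28 passed the filter. In vehicle 3 rose and 1 fell, against 2.42% and 2.25% of all genes. Under IL-4, 1 rose and none fell, against 2.03% and 1.60%. The medians were 0.01 and -0.05, beside 0.02 and -0.02 over all genes. Scd2, a second stearoyl-CoA desaturase, read 1.52, 0.79, 1.58 and 1.49 on control vehicle and 3.23, 3.22 and 2.65 on KO vehicle arrays. Under IL-4, Scd2 read 2.66, 2.19 and 2.77 in control and 3.96, 4.02 and 3.55 in KO cells. Genotypes did not overlap within a treatment, and Scd2 rose by 1.69 (SE 0.23, adjusted p = 0.00143) in vehicle and 1.30 (SE 0.25, adjusted p = 0.0128) under IL-4, near the Scd1 estimates but with a smaller spread. Lpin1, a phosphatidate phosphatase, rose by 0.79 (adjusted p = 0.00764) in vehicle, and Acsl3, which activates fatty acids, fell by 0.49 (adjusted p = 0.0419).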

How the data were processed

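RNA of bone marrow-derived macrophages was amplified, labelled with Cy3 and hybridised to 13 one-colour arrays, per the labels' protocols. The deposited scanner output gives linear spot intensity values that the software corrected for background, per the file headers, which name Agilent Feature Extraction 10.5.1.1 (9.53 in the submitters' processing notes, which also name limma) and place the probes in mm9. A deposited value table, whose column medians were 181.0 or 181.5, holds the authors' normalized intensity values; how it was made is not given in the sources used here, and it served as an alternative.

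Outlier spots were dropped, spots of a probe averaged, and log2 intensity from the deposited files was set relative to each array's 75th percentile over probes. Of 41174 non-control probes, 101 were left out as outliers and 29055 were kept, each of them well above background throughout 1 group or more. The brightest probe of each gene gave 20891 genes. A two-sided test of each comparison came from 1 fit of the 4 group means over all 13 arrays (limma 3.58.1, R 4.3.3), with Benjamini-Hochberg adjustment over all genes, or over all kept probes where probes are given apart, and calls were made at an adjusted p under 0.05. Intervals are 95% confidence intervals from this fit. On simulated data for KO against control in vehicle, the fit recovered 22%, 56% and 92% of genes planted at log2 changes of 0.5, 1 and 2 among 20891 genes. Fewer genes were planted than were called in the data, and the adjustment depends on that number. These shares therefore need not hold for the data. The number of arrays limits the precision.

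Values on every array are given for the 10 sterol and 5 fatty acid members with the smallest adjusted p in either HDAC3 comparison, for members called with IL-4, for Insig1, Insig2, Srebf2 and Scap and for every Hmgcs1 probe, and at most 4 other genes of each pathway list are named. Some genes that this rule takes are not reported here. The members and lists were chosen with earlier results of these data known. Alternatives were quantile normalization, normexp background correction followed by quantile normalization (called normexp below), median scaling and the authors' values. Further ones were no filter on dim probes, the mean over probes, slide as a block, a fit of the compared groups only and leaving out each array. The percentile over spots and leaving out the 2 dimmest arrays were chosen after seeing the data.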

Additional observations from a re-analysis of the deposited data

Results flagged for a closer look

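Across the 34 members, the 4 control vehicle arrays were screened for an array far from the others, and chance picks out about 1 in 20 such groups. Fdps, the farnesyl diphosphate synthase, read -0.16 on control vehicle 2 against -0.57 to -0.51 on the other arrays of the group. Scd1, the stearoyl-CoA desaturase, read -0.28 on control vehicle 1 against -0.63 to -0.61 on the others, still below every KO vehicle array.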

How the results depend on the processing

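Of 24 member calls, 1 held under every setting and 1 changed sign: the mean over probes turned the IL-4 response of Hmgcs1 in control cells to -0.0303. Outside the settings that leave out 1 array, the vehicle calls held in 10 of 10 settings for Stard4, Me1 and Elovl6, 9 for Fdft1, 8 for Hmgcs1 and Idi1, 6 for Mvd, 5 for Sqle, 4 for Hsd17b7 and Elovl5 and 3 for Cyp51. Under IL-4 they held in 9 for Mvd and Fdft1, 8 for Idi1 and Sqle, 7 for Insig1, 6 for Dhcr7, Stard4 and Elovl6 and 5 for Cyp51, Sc5d and Me1. The sterol median stayed above 0 throughout, from 0.26 to 0.41 in vehicle and 0.24 to 0.43 under IL-4. Leaving out 1 array at a time gave 3 to 10 sterol and 1 to 4 fatty acid calls in vehicle, 3 to 8 and 0 to 2 under IL-4, 0 to 2 and 0 to 1 for IL-4 in control cells, and 0 to 1 sterol calls for IL-4 in KO cells.

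The shares of all genes called in each setting are not given beside the counts below. Counts that moved by over 1.5 times were these. Sterol calls in vehicle were 1 with median scaling and 4 with no filter, with the slide block or without the 2 arrays of lowest share above background (control vehicle 4 and KO IL-4 15). Sterol calls under IL-4 were 5 with median scaling, with no filter or without those 2 arrays, and 0 with the compared groups only. Fatty acid calls were 5 in vehicle with normexp; under IL-4 they were 1 with median scaling or the slide block and 0 with no filter, with the compared groups only or without those 2 arrays. For IL-4 in control cells, sterol calls were 2 with normexp and 0 with median scaling, no filter, the slide block, the compared groups only or without those 2 arrays, and fatty acid calls were 0 with quantile normalization, normexp, median scaling, the authors' values or the slide block. For IL-4 in KO cells, normexp called 3 sterol members. The compared groups only leave 6 or 7 arrays, and a fit without a filter tests more genes; the cause of the other shifts was not tested. The labels give the groups no shared replicate numbers, and the slide was the only block fitted across them.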
